A study of Mus musculus with 28 samples.

Results

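Iron handling was followed through 9 genes that move iron into cells, store it, let it out again or control those steps, in lung libraries of mice that inhaled carbon black, ozone or both. The members were the rows whose Ensembl identifier carries the symbol Tfrc, Fth1, Ftl1, Slc40a1, Slc11a1, Slc11a2, Steap4, Ireb2 or Cd163, which is 9 of the 35880 genes in the count table. All 9 were found, all 9 passed the filter on low counts, and each had more than 3 counts in every library. RNA came from whole-lung homogenate of wild-type male C57BL/6 mice, an inbred strain, labelled 8 to 12 weeks old and described elsewhere in the labels as 8 weeks old.

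The exposed groups breathed carbon black, a soot-like powder of elemental carbon, at a dose of 10 mg/m3, or ozone, a reactive form of oxygen, at 2 ppm, or both together as co-exposure. Each exposure lasted 3 hours, and the sham groups breathed air. A single exposure preceded day 1 (4 libraries in each group) and 4 daily exposures preceded day 4 (3 libraries in each group), so day and number of exposures cannot be told apart. The 28 libraries fall into 8 groups. Whether each library is a separate mouse is not stated in the labels, and p-values therefore reflect only how much libraries of a group differ.

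Iron reaches most cells bound to transferrin, which the transferrin receptor Tfrc takes into endosomes, where Steap reductases reduce the iron and the transporter Slc11a2 passes it to the cytosol. Surplus iron is held in ferritin shells built of Fth1 (heavy) and Ftl1 (light) chains, and ferroportin, encoded by Slc40a1, is the known exporter of iron from mammalian cells. In the lung, alveolar macrophages are known to take up much of the iron that is inhaled or released from red cells. Iron regulatory proteins, of which Ireb2 encodes 1, bind a short RNA hairpin called the iron responsive element when iron is scarce. Bound near the start of a message the hairpin blocks translation, and bound in the 3′ end of Tfrc it protects the message from decay.

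The hairpins of the members are shown because iron regulatory proteins bind such elements. Those of Tfrc are also known to act on the amount of RNA, which is what sequencing measures. They were searched on the sense strand of GENCODE M21 transcripts (GRCm38) as a C, 5 bases, CAGTG, 1 base and 5 bases that pair with the first 5 as an upper stem (G with T allowed), with at least 4 of 5 further pairs below the C. Capitals mark the bulged C and the loop of 6 bases. Fth1 (chr19:9982732-9982760, plus strand), Ftl1 (chr7:45459779-45459807, minus strand) and Slc40a1 (chr1:45925465-45925493, minus strand) each hold 1 in the 5′ UTR. By this pattern Tfrc holds 4 in the 3′ UTR on the plus strand, at chr16:32631219-32631247, chr16:32631598-32631626, chr16:32631663-32631691 and chr16:32631710-32631738.
Fth1: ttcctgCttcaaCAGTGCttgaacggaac
Ftl1: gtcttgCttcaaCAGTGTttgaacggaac
Slc40a1: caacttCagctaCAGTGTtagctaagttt
Tfrc, hairpin 1: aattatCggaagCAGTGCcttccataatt
Tfrc, hairpin 2: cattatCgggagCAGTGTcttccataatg
Tfrc, hairpin 3: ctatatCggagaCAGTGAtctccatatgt
Tfrc, hairpin 4: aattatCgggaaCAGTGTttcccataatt
The Fth1 and Ftl1 hairpins share the upper stem and Tfrc hairpins 1, 2 and 4 share the lower stem. Such a hairpin lay in a UTR of 4 of the 9 members and of 16 of the 14457 tested genes that were searched, which is 0.111%. A match describes letters only. Its absence in Slc11a1, Slc11a2, Steap4, Ireb2 and Cd163 says only that this pattern was not found in the UTRs searched. It does not say that iron regulatory proteins cannot bind these messages, as elements of another shape would be missed.

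Each library held 5.14 M to 9.72 M estimated counts (median 7.19 M). Levels below are counts per 1 M counts after TMM scaling (CPM), which compare a gene between groups and not 1 gene with another. Markers of alveolar type 1, alveolar type 2 and endothelial cells were present in every group. In a homogenate, fewer cells of a type and less RNA per cell cannot be told apart. Some libraries stood apart. At day 1, sham replicate 2 had 1202 summed CPM of 5 muscle markers and 642 of 5 fat markers, against 200 to 320 and 99.6 to 116 in the other sham libraries. At day 4, carbon black replicate 3 and co-exposure replicate 3 had 1036 and 779 summed CPM of the muscle markers, the most of their groups. Carbon black replicate 1 of day 4 was the shallowest library.

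Tfrc and Fth1 were the members called higher after ozone at day 1, with or without carbon black. At day 4 these were Tfrc and Slc40a1. Carbon black alone raised Slc40a1 at day 1. Its day 4 difference after carbon black alone (log2 fold change 0.74) was not called. That difference was as large as those after ozone (0.69) and co-exposure (0.70). By edgeR's quasi-likelihood test with Benjamini-Hochberg adjustment over 14887 genes, at an adjusted p under 0.05, 1 of 9 members was called after carbon black at day 1, where 1.66% of all genes were called. The count was 2 of 9 after ozone at day 1, beside 11.4% of all genes, and 3 of 9 after co-exposure at day 1, beside 19.2%. After carbon black at day 4 it was 0 of 9, beside 0.208% of all genes, and 0 by DESeq2 or limma-voom. Under an unadjusted p of 0.05 there were 3 members, beside 2266 of the 14887 genes. The count called was 2 of 9 after ozone at day 4, beside 20.7%, and 2 of 9 after co-exposure, beside 34.1%. With 9 members, 1 call more or less moves such a share by more than most of these gaps, and after co-exposure at day 4 the members' share was below that of all genes. The median log2 fold change of the members was 0.13, 0.04 and -0.12 after carbon black, ozone and co-exposure at day 1, and 0.13, 0.18 and 0.21 at day 4, where the median of all genes lay within 0.01 of 0 in each comparison.

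**Figure D1:**
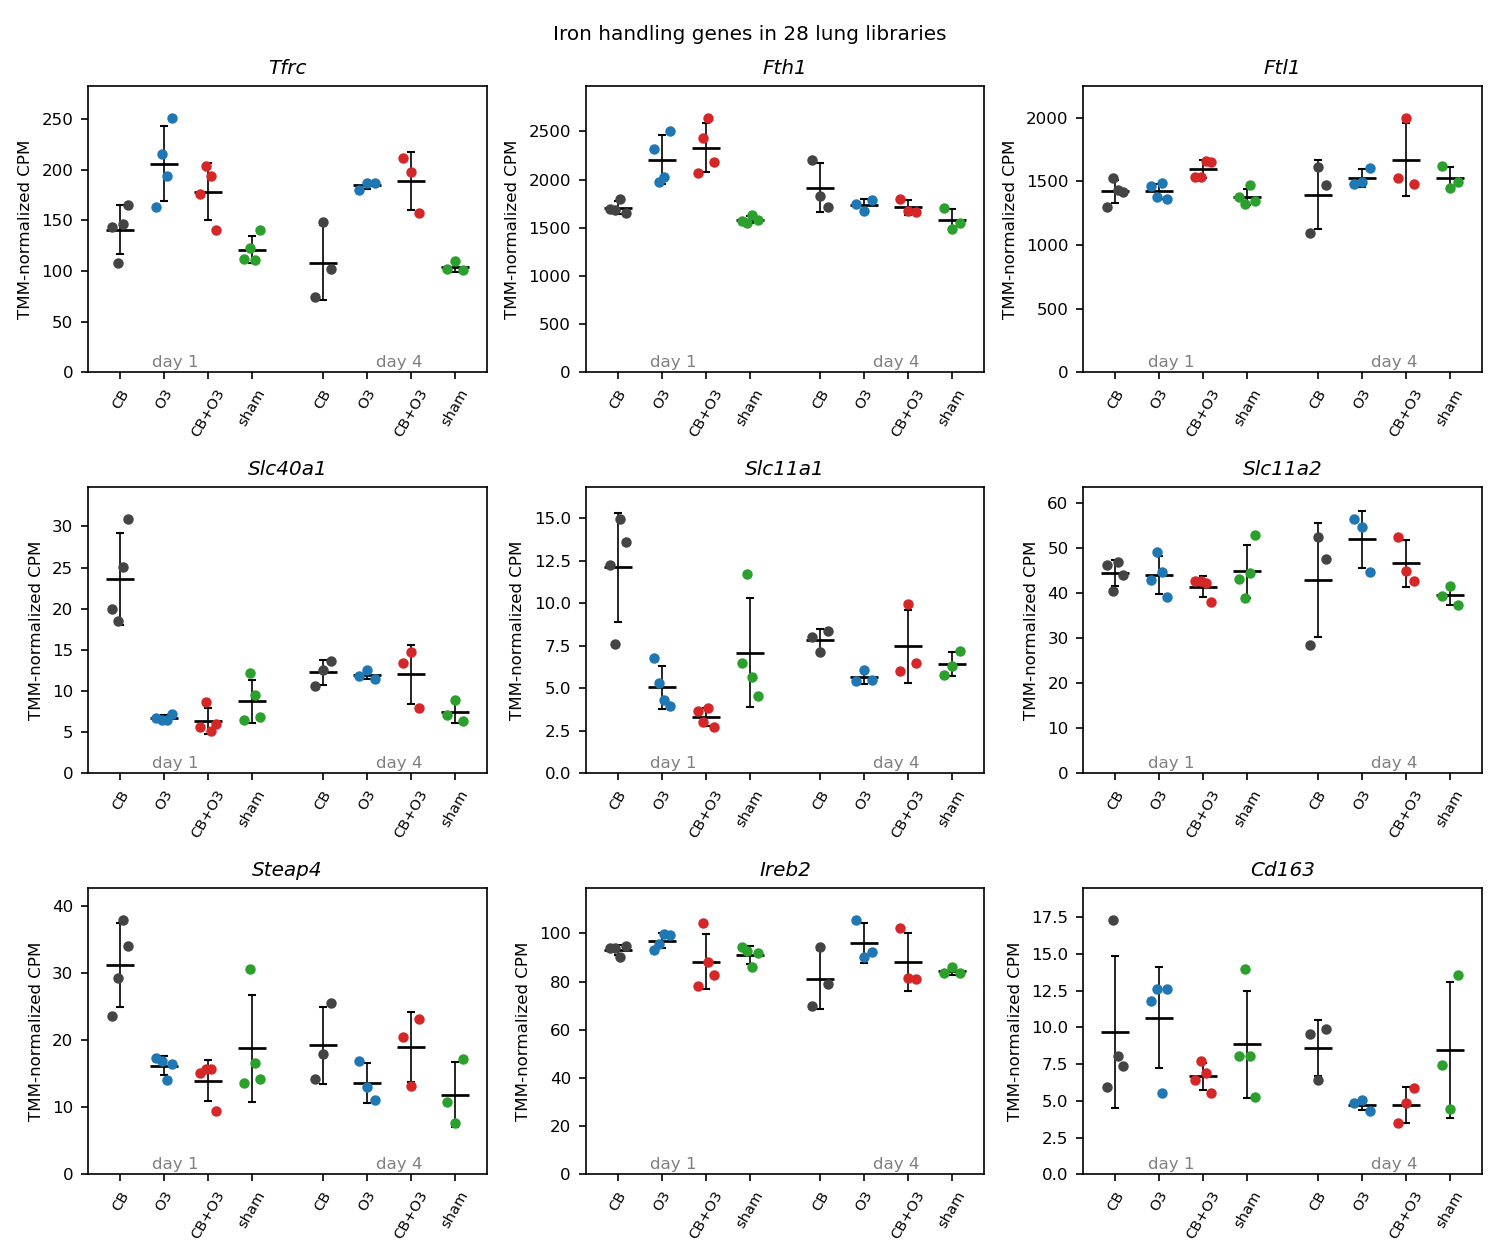
Level of each of the 9 genes (y axis, TMM-normalized CPM, from 0) in every library, with carbon black (CB), ozone (O3), co-exposure (CB+O3) and sham from left to right at day 1 and then day 4. Points are libraries, wide bars the group mean and thin bars 1 SD (n = 4 at day 1, n = 3 at day 4). Slc40a1 stands highest after carbon black at day 1, at 18.45 to 30.9 CPM.

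Tfrc (ENSMUSG00000022797, chr16:32608920-32632794, plus strand), the receptor that brings transferrin-bound iron into the cell, was higher in every ozone and co-exposure library than in every sham library of its day. At day 1 it stood at 163, 215, 193 and 251 CPM after ozone, at 176, 204, 193 and 140 CPM after co-exposure and at 112, 122, 110 and 140 CPM in sham. The lowest co-exposure library lay just above the highest sham library. The log2 fold change was 0.76 ± 0.16 (SE) after ozone (adjusted p = 0.00271) and 0.56 ± 0.16 after co-exposure (adjusted p = 0.0170), by edgeR's quasi-likelihood test. The day 4 levels were 180, 187 and 186 CPM after ozone, 212, 197 and 157 CPM after co-exposure and 102, 110 and 101 CPM in sham. The groups did not overlap, and the rise was 0.82 ± 0.19 after ozone (adjusted p = 0.00253) and 0.86 ± 0.19 after co-exposure (adjusted p = 0.00102). Carbon black alone did not separate from sham, with 144, 108, 146 and 165 CPM at day 1 and 74.4, 148 and 102 CPM at day 4. Its log2 fold changes were 0.22 ± 0.16 (adjusted p = 0.717) and 0.06 ± 0.19 (adjusted p = 0.918), and the day 4 value was 0.26 (adjusted p = 0.622) without carbon black replicate 1.

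The rise of Tfrc after ozone differed between the days by 0.06 on the log2 scale, with a 95% interval of -0.45 to 0.57, so a change smaller than that was not detectable. The call after co-exposure at day 1 was lost in 3 of 16 alternative fits, with adjusted p up to 0.0580, when co-exposure replicate 3, sham replicate 1 or sham replicate 3 was left out. Markers of dividing cells also rose after ozone and co-exposure. Of 8 such markers, 6 rose after ozone and 7 in the co-exposure group at day 1, and 8 rose after each at day 4. Their summed level was 187 to 386 CPM after ozone and 270 to 336 CPM after co-exposure at day 1, against 124 to 152 CPM in sham. By day 4 the sum was 559 to 635 CPM after ozone and 732 to 751 CPM after co-exposure, against 111 to 150 CPM in sham. Tfrc after ozone was 206 ± 37.1 CPM at day 1 and 184 ± 3.68 CPM at day 4 (SD, n = 4 and 3). It was 178 ± 27.9 and 189 ± 28.2 CPM after co-exposure, and 121 ± 13.7 and 104 ± 4.88 CPM in sham. The part of dividing cells in the Tfrc result was not tested.

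Slc11a2 (ENSMUSG00000023030, chr15:100387898-100425072, minus strand), which carries ferrous iron out of endosomes, was called in no comparison. Its day 4 levels were 56.5, 54.6 and 44.7 CPM after ozone, 52.6, 44.9 and 42.6 CPM after co-exposure and 39.4, 41.6 and 37.4 CPM in sham. Both exposed ranges lay above sham. The difference after ozone was 0.40 ± 0.15 (adjusted p = 0.0545), and it passed the threshold in 3 of 13 alternatives, which were DESeq2 (adjusted p = 0.0436), the fit of ozone and sham alone (0.0135) and the fit without ozone replicate 3 (0.0394). Over all 13 its adjusted p reached 0.179. At day 1 every group mean of Slc11a2 lay between 41.4 and 44.9 CPM.

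Steap4 (ENSMUSG00000012428, chr5:7960457-7982213, plus strand), a metalloreductase that reduces iron and copper, stood at 23.6, 29.3, 38.0 and 34.1 CPM after carbon black at day 1, at 17.4, 16.9, 14.1 and 16.4 CPM after ozone, at 15.1, 15.8, 15.7 and 9.40 CPM after co-exposure and at 13.6, 30.6, 16.7 and 14.2 CPM in sham. Sham replicate 2 lay inside the carbon black range and the other sham libraries below it. The carbon black difference was 0.74 ± 0.25 (adjusted p = 0.216), and 1.07 (adjusted p = 0.0139) without that sham library. At day 4 the group means were 19.2, 13.7 and 19.0 CPM after carbon black, ozone and co-exposure, against 11.9 CPM in sham, with overlapping ranges and no call. In each day 4 group the library highest in Steap4 had the most fat marker RNA, which at day 1 held in sham only. Those libraries had 25.5, 16.9, 23.2 and 17.2 CPM of Steap4. Their fat sums were 361, 89.0, 180 and 185 CPM in the same order of groups. The library highest in Steap4 had the most neutrophil marker RNA in carbon black and sham at day 1, at 4419 and 247 summed CPM. That held in no other group. The part of fat or neutrophils was not tested. The day 4 co-exposure difference of Steap4, 0.65 ± 0.30 (adjusted p = 0.1004), was 1.02 (adjusted p = 0.0233) without sham replicate 3 of day 4. It was 0.86 (adjusted p = 0.0499) without co-exposure replicate 2. Its lowest value over 13 alternatives was 0.44, and its adjusted p reached 0.337.

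Fth1 (ENSMUSG00000024661, chr19:9980598-9985098, plus strand), the ferritin chain that oxidises iron for storage, rose at day 1 in both groups that breathed ozone. It stood at 2322, 1977, 2028 and 2505 CPM after ozone, at 2064, 2433, 2641 and 2187 CPM after co-exposure and at 1574, 1546, 1632 and 1583 CPM in sham. Each exposed library exceeded each sham library. The log2 fold change was 0.48 ± 0.09 after ozone (adjusted p = 0.00115) and 0.56 ± 0.09 after co-exposure (adjusted p = 0.000149), and neither call was lost in any of 16 alternatives. After carbon black at day 1 it stood at 1692, 1687, 1803 and 1656 CPM. That range also lay above sham, by 0.11 ± 0.09 (adjusted p = 0.756).

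At day 4 Fth1 stood at 2201, 1832 and 1714 CPM after carbon black, at 1743, 1672 and 1793 CPM after ozone, at 1794, 1677 and 1660 CPM after co-exposure and at 1710, 1490 and 1549 CPM in sham. No exposure was called, with log2 fold changes of 0.28 ± 0.11 (adjusted p = 0.220), 0.13 ± 0.11 (adjusted p = 0.413) and 0.11 ± 0.11 (adjusted p = 0.453). The highest value belonged to the shallowest library, and without it the carbon black difference was 0.16. Between the days the co-exposure effect on Fth1 fell by 0.45 ± 0.14 on the log2 scale (adjusted p = 0.0440), a call lost in 15 of 22 alternatives, with adjusted p up to 0.112. Those were scaling by median of ratios, testing without a filter on counts, the compared groups alone, both muscle-rich day 1 libraries left out, and the fits without any single sham library, without co-exposure replicate 2 or 3 of day 1, or without co-exposure replicate 2 or 3 of day 4. The matching difference for ozone was -0.35 ± 0.14 (adjusted p = 0.198).

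Ftl1 (ENSMUSG00000050708, chr7:45457944-45459884, minus strand), the ferritin chain that helps form the iron core, was called in no comparison. Co-exposure at day 1 gave 1537, 1536, 1660 and 1653 CPM, against 1375, 1321, 1467 and 1345 CPM in sham. The ranges did not overlap, and the difference was 0.21 ± 0.10 (adjusted p = 0.150). After ozone at day 1 Ftl1 stood at 1361 to 1485 CPM, overlapping sham, with a difference of 0.04 and a 95% interval of -0.17 to 0.26. The ratio of Fth1 to Ftl1 counts, in which gene length is the same for every library, was 1.56 ± 0.21 after ozone and 1.46 ± 0.15 in the co-exposure group at day 1, against 1.15 ± 0.03 in sham (SD, n = 4 each). The day 4 ratio was 1.14 ± 0.03 after ozone and 1.05 ± 0.18 after co-exposure, against 1.04 ± 0.01 in sham (n = 3 each). After carbon black it was 1.21 ± 0.09 at day 1 and 1.44 ± 0.50 at day 4, where the shallowest library alone reached 2.02.

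Ferritin genes have near-identical copies between which reads are divided by estimate, so their values are uncertain to that extent. The copy Ftl1-ps1 (chromosome 13) took 76 to 478 counts per library and was not called. Its highest value, 103 CPM, was in the same shallow carbon black library. Fth-ps2, Ftl1-ps2 and Ftl2-ps had 42, 20 and 12 counts over all libraries, beside at least 9697 of Fth1 and 5042 of Ftl1 in each library, and the other 10 annotated copies had 0 counts.

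**Figure D2:**
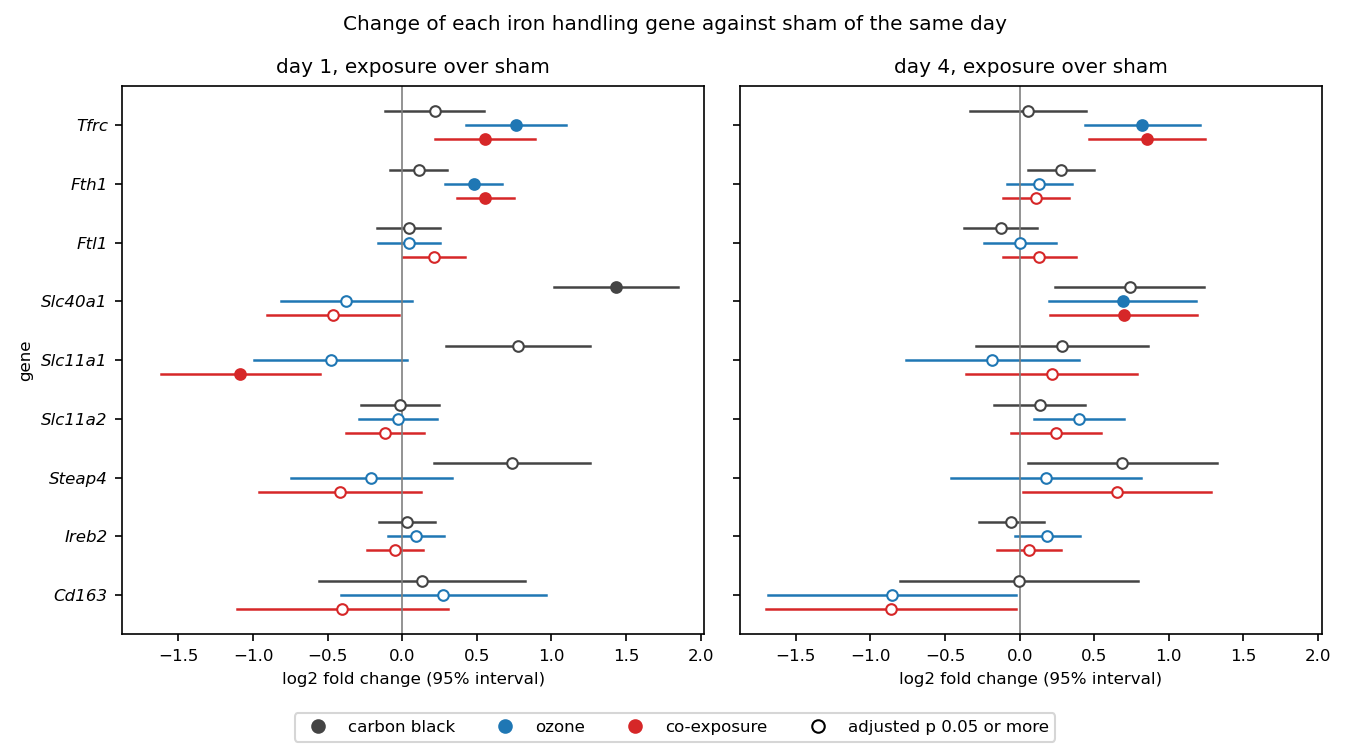
Log2 fold change of each gene over sham of the same day (x axis) with its 95% interval from edgeR, day 1 on the left and day 4 on the right, in rows of carbon black, ozone and co-exposure from top to bottom. Filled points passed an adjusted p of 0.05, open points did not. The largest rise is that of Slc40a1 after carbon black at day 1 (1.43).

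Slc40a1 (ENSMUSG00000025993, chr1:45908068-45926523, minus strand), which encodes the iron exporter ferroportin, was the member that carbon black raised at day 1. It stood at 19.97, 18.45, 25.1 and 30.9 CPM after carbon black, at 6.75, 6.49, 6.50 and 7.15 CPM after ozone, at 5.65, 8.64, 5.08 and 5.98 CPM after co-exposure and at 6.48, 12.2, 9.48 and 6.87 CPM in sham. Every carbon black library lay above every library of the other groups, which overlapped. The rise was 1.43 ± 0.20 on the log2 scale, or 2.70-fold (adjusted p = 0.000730), and it was 1.63 without sham replicate 2. The call held in 15 of 16 alternatives and had adjusted p = 0.0662 when only the carbon black and sham libraries were fitted. Ozone and co-exposure at day 1 differed from sham by -0.37 ± 0.21 (adjusted p = 0.283) and -0.46 ± 0.22 (adjusted p = 0.138). The ozone value was -0.18 (adjusted p = 0.677) without sham replicate 2. The co-exposure value was -0.64 (adjusted p = 0.0455) without co-exposure replicate 2 and -0.27 (adjusted p = 0.470) without sham replicate 2.

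Neutrophil markers rose in the same carbon black group. All 8 were called, and their summed level was 993, 138, 4419 and 2404 CPM in carbon black replicates 1 to 4, against 43.3, 247, 80.1 and 74.9 CPM in sham replicates 1 to 4. In replicate 2 the neutrophil sum lay below that of sham replicate 2, the library rich in muscle and fat markers, and above the other sham libraries. Slc40a1 there was 18.45 CPM, the lowest of the carbon black group and above every sham library. Replicates 3 and 4, with the highest neutrophil sums, also had the most Slc40a1, at 25.1 and 30.9 CPM. Resident alveolar macrophage markers summed to 1357 to 1601 CPM after carbon black, against 948 to 1105 CPM in sham, with 0 of 8 called. Erythroid markers, of which 3 of 8 rose, summed to 8944, 30880, 21370 and 16680 CPM, against 9678 to 12660 CPM in sham. Slc40a1 in the same carbon black replicates 1 to 4 was 19.97, 18.45, 25.1 and 30.9 CPM. In replicate 1 the erythroid sum lay below every sham library. Without replicate 2 the Slc40a1 rise was 1.53 (adjusted p = 4.13e-05). The part of neutrophils, macrophages or red cells in the result was not tested.

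**Figure D3:**
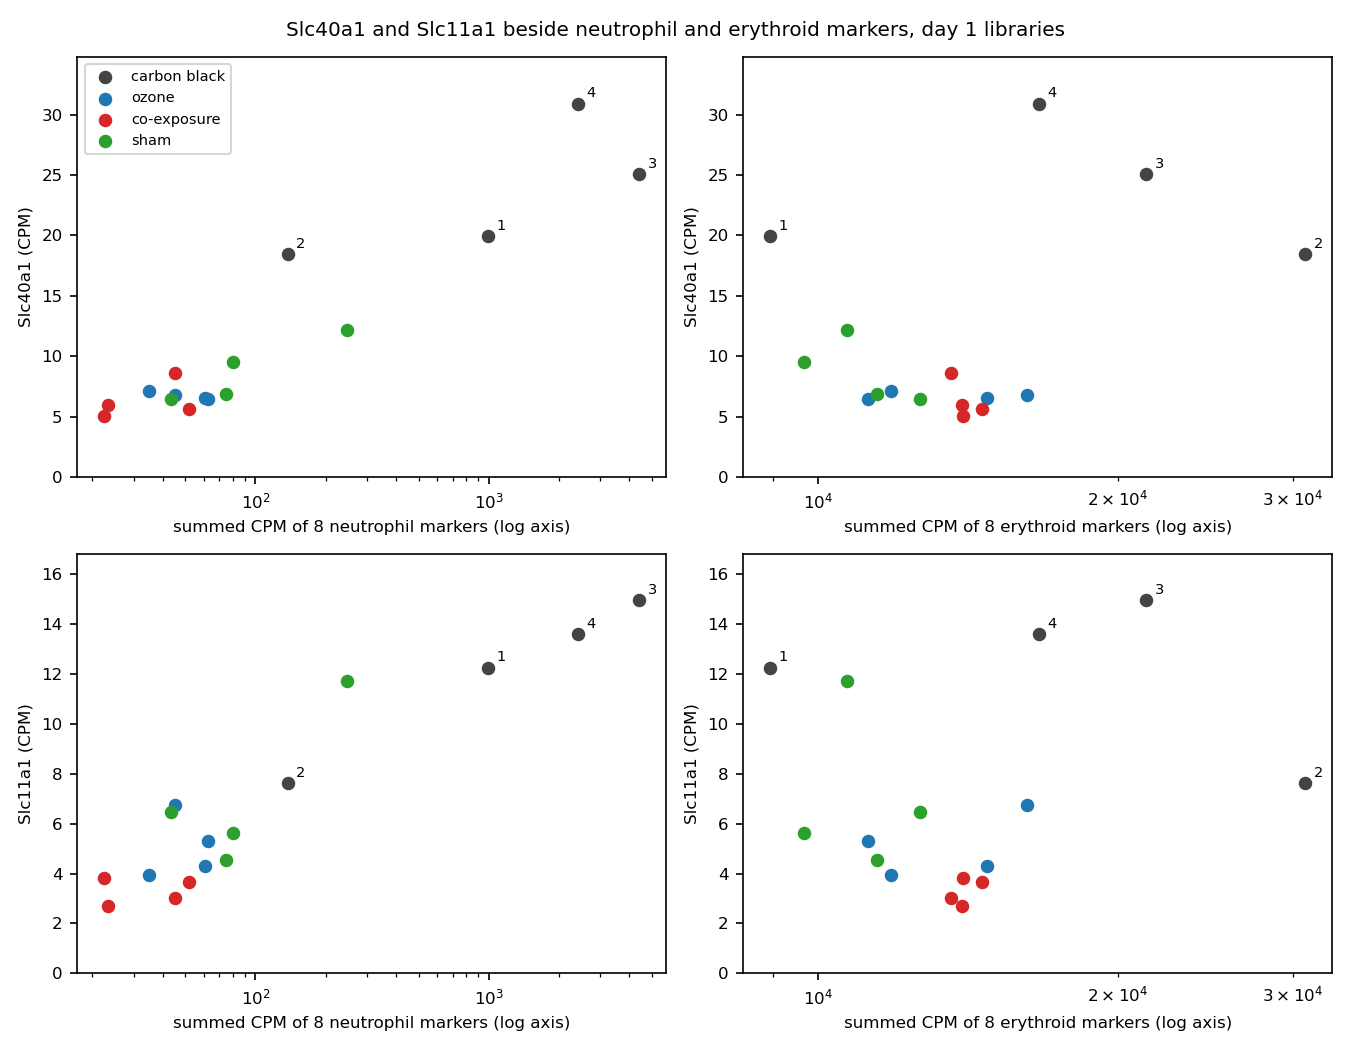
Level of Slc40a1 (top) and Slc11a1 (bottom; y axes, CPM) in each day 1 library against the summed CPM of 8 neutrophil markers (left) and 8 erythroid markers (right; x axes, log scale), with carbon black, ozone, co-exposure and sham in that order in the legend and carbon black replicates numbered. Carbon black replicate 2 has 138 CPM of neutrophil markers and 18.45 CPM of Slc40a1, and replicate 3 has 4419 and 25.1 CPM.

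At day 4 Slc40a1 stood at 10.6, 12.6 and 13.65 CPM after carbon black, at 11.8, 12.5 and 11.5 CPM after ozone, at 13.3, 14.8 and 7.92 CPM after co-exposure and at 7.09, 8.91 and 6.34 CPM in sham. The carbon black and ozone ranges lay above sham, and co-exposure replicate 3 lay inside it. The rise was 0.69 ± 0.24 after ozone (adjusted p = 0.0409) and 0.70 ± 0.24 after co-exposure (adjusted p = 0.0259). Carbon black differed by 0.74 ± 0.24 (adjusted p = 0.158). The ozone call was lost in 6 of 13 alternatives and the co-exposure call in 5 of 13, with adjusted p up to 0.163 and 0.142, among them the fits without sham replicate 1 or 3, without any single ozone library, and without co-exposure replicate 1 or 2. Alveolar macrophage markers summed to 1053 to 1222 CPM after carbon black, 1191 to 1512 CPM after ozone and 783 to 1667 CPM after co-exposure, against 623 to 781 CPM in sham, with 0, 1 and 2 of 8 called higher and 1 of 8 called lower after co-exposure. Their part was not tested.

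Slc11a1 (ENSMUSG00000026177, chr1:74375195-74386062, plus strand), which pumps iron and other metals out of the phagosomes of macrophages and neutrophils, fell after co-exposure at day 1. It stood at 12.25, 7.61, 14.95 and 13.6 CPM after carbon black, at 6.75, 5.31, 4.29 and 3.92 CPM after ozone, at 3.68, 3.03, 3.81 and 2.71 CPM after co-exposure and at 6.48, 11.7, 5.64 and 4.54 CPM in sham. All 4 co-exposure libraries lay below all others. The fall was -1.09 ± 0.26 (adjusted p = 0.00398), and -0.74 (adjusted p = 0.0350) without sham replicate 2. Alveolar macrophage markers summed to 586 to 932 CPM after co-exposure, against 948 to 1105 CPM in sham, with 2 of 8 called lower. One of those markers, Fabp4, is also in the fat list. Markers of monocyte-derived and interstitial macrophages summed to 441 to 532 CPM, against 437 to 641 CPM in sham, with 2 of 10 called lower. Neutrophil markers summed to 22.4 to 52.0 CPM, against 43.3 to 247 CPM in sham, with 0 of 8 called. Their part in the fall was not tested. The Slc11a1 levels rest on few reads, 94 counts over the co-exposure group and 209 over sham. The carbon black difference of 0.78 ± 0.24 did not pass (adjusted p = 0.115). The value was 1.12 (adjusted p = 0.00428) without sham replicate 2 and 0.94 (adjusted p = 0.0212) without carbon black replicate 2, the library with the lowest neutrophil sum of its group. Over 16 alternatives its lowest value was 0.61, and its adjusted p reached 0.424. At day 4 the means were 7.83, 5.65 and 7.47 CPM after carbon black, ozone and co-exposure, against 6.42 CPM in sham, with overlapping ranges and no call.

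Ireb2 (ENSMUSG00000032293, chr9:54863789-54912530, plus strand), which encodes iron regulatory protein 2, a sensor controlled mainly through the breakdown of its protein, was called in no comparison. Its group means ran from 80.9 CPM after carbon black at day 4 to 97.0 CPM after ozone at day 1. All 3 ozone libraries of day 4, at 90.2 to 106 CPM, lay above the sham range of 83.4 to 86.2 CPM, a difference of 0.19 ± 0.11 (adjusted p = 0.222).

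Cd163 (ENSMUSG00000008845, chr6:124304656-124330527, plus strand), the macrophage receptor that clears hemoglobin bound to haptoglobin, was called in no comparison. Its day 4 levels were 9.52, 6.42 and 9.86 CPM after carbon black, 4.83, 5.08 and 4.31 CPM after ozone, 3.47, 4.83 and 5.90 CPM after co-exposure and 7.46, 4.46 and 13.5 CPM in sham. The ozone and sham ranges overlapped, with ozone replicate 3 below every sham library, and the differences were -0.85 ± 0.40 after ozone (adjusted p = 0.1405) and -0.86 ± 0.41 after co-exposure (adjusted p = 0.103). Without sham replicate 2 the co-exposure difference was -1.15 (adjusted p = 0.0396), and without sham replicate 3 it was -0.35 (adjusted p = 0.576). At day 1 the highest values, 17.3 CPM in carbon black replicate 2 and 13.9 CPM in sham replicate 2, were in the libraries with the most fat marker RNA, at 542 and 642 summed CPM. Ozone replicates 1, 2 and 4 had 11.81, 12.63 and 12.61 CPM of Cd163 with fat sums of 48.08, 59.35 and 54.23 CPM. The part of fat in these Cd163 levels was not tested.

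No member was called between co-exposure and ozone, while Slc40a1, high after carbon black alone at day 1, was lower after co-exposure. Co-exposure against ozone gave 0 of 9 members at each day by edgeR, DESeq2 and limma-voom, where 0% of all genes were called by edgeR. Under an unadjusted p of 0.05 there was 1 member (Slc11a1) at day 1, beside 2337 of the 14887 genes. At day 4 there were 0 members, beside 2991 genes. The count of all genes called at day 4 was 472 by DESeq2 and 2769 without co-exposure replicate 1. No member was called in either. For Tfrc the difference was -0.21 at day 1 (95% interval -0.54 to 0.12) and 0.03 at day 4 (-0.35 to 0.42), and for Fth1 0.08 at day 1 (-0.11 to 0.27). The day 1 Slc11a1 difference was -0.60 ± 0.26 (adjusted p = 0.281, edgeR), with all 4 co-exposure libraries below all ozone libraries. For Ftl1 it was 0.17 ± 0.10 (adjusted p = 0.417, edgeR), with all 4 above.

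Against carbon black at day 1, co-exposure called 4 of 9 members, where 25.9% of all genes were called, and the 4 were called in each alternative run. Slc40a1 was lower by -1.90 ± 0.21 (adjusted p = 5.83e-07), Slc11a1 by -1.86 ± 0.25 (adjusted p = 8.09e-06) and Steap4 by -1.15 ± 0.26 (adjusted p = 0.00195). Fth1 was higher by 0.45 ± 0.09 (adjusted p = 0.000885). The ranges of these 4 genes did not overlap between the groups. Neither did those of Ftl1, which was not called, at 1536 to 1660 CPM after co-exposure, against 1301 to 1528 CPM after carbon black. The share of all genes without overlap was not counted. The 8 neutrophil markers were lower too, at 22.4 to 52.0 summed CPM after co-exposure, against 138 to 4419 CPM after carbon black. Of 8 resident alveolar macrophage markers 3 were lower, with sums of 586 to 932 CPM after co-exposure, against 1357 to 1601 CPM after carbon black. Of 10 markers of monocyte-derived and interstitial macrophages 4 were lower, with sums of 441 to 532 CPM after co-exposure, against 566 to 738 CPM after carbon black. Of 8 erythroid markers 3 were lower, with sums of 13600 to 14610 CPM after co-exposure, against 8944 to 30880 CPM after carbon black. The part of these cells in the result was not tested. Against carbon black at day 4, co-exposure called 1 of 9 members, Tfrc at 0.80 ± 0.19 (adjusted p = 0.00166), where 38.2% of all genes were called. Ftl1 differed by 0.26 ± 0.12 there (adjusted p = 0.0831), and passed without carbon black replicate 2 (0.0224), co-exposure replicate 1 (0.0452) or co-exposure replicate 3 (0.0465). Without carbon black replicate 1, the shallowest library, it was 0.11 (adjusted p = 0.453).

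The particle by ozone interaction, which is the co-exposure effect minus the sum of the single effects on the log2 scale, called 2 of 9 members at day 1, where 1.46% of all genes were called. Both were lower, as were 1.24% of all genes. It was -1.52 ± 0.30 for Slc40a1 (adjusted p = 0.0128), called in each of 24 alternatives. The same interaction was called lower for 5 of 8 neutrophil markers (median -4.40), 2 of 8 resident alveolar macrophage markers, 1 of 10 markers of monocyte-derived and interstitial macrophages and 2 of 8 erythroid markers, and their part was not tested. For Slc11a1 it was -1.38 ± 0.35 (adjusted p = 0.0454), a call lost in 14 of 24, with adjusted p up to 0.121. Those were no low-count filter, limma-voom, the replicate block, and the fits without sham replicate 1, 3 or 4, carbon black replicate 1, 3 or 4, ozone replicate 1, 2 or 3, or co-exposure replicate 3 or 4. Steap4 stood at -0.95 ± 0.37 (adjusted p = 0.163), and at -1.28 (adjusted p = 0.0367) without sham replicate 2, with adjusted p up to 0.331 over 24 alternatives. The day 4 interaction called 0 of 9 members by edgeR, DESeq2 and limma-voom. Of all genes, 1.37% were called by edgeR (0.766% higher, 0.605% lower). An unadjusted p under 0.05 was seen for 1 member, beside 3466 of the 14887 genes. Slc40a1 stood at -0.73 ± 0.34 there (adjusted p = 0.193).

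The effect of an exposure changed between the days in 3 of 9 members for co-exposure, where 10.2% of all genes were called (5.44% higher, 4.78% lower). Beside the fall of the Fth1 effect, the effect on Slc40a1 was 1.16 ± 0.32 higher at day 4 (adjusted p = 0.0209) and that on Slc11a1 1.3 ± 0.38 higher (adjusted p = 0.0279). The Slc40a1 call was lost in 5 of 22 alternatives and the Slc11a1 call in 8 of 22. Without sham replicate 2 of day 1 they were 0.97 (adjusted p = 0.0532) and 0.96 (adjusted p = 0.0742). Both were also lost without co-exposure replicate 2 of day 4 (adjusted p = 0.0686 and 0.0993), the Slc40a1 call without sham replicate 3 of day 4 (0.0613), and the Slc11a1 call without sham replicate 1 or 2 of day 4 (0.0645 and 0.0579) or co-exposure replicate 4 of day 1 (0.0552). Steap4 stood at 1.07 ± 0.40 (adjusted p = 0.0917), at 1.44 (adjusted p = 0.0321) without sham replicate 3 of day 4, at 0.74 (adjusted p = 0.217) without sham replicate 2 of day 1 and at 0.90 (adjusted p = 0.213) without co-exposure replicate 3 of day 4. For ozone 0 of 9 members were called, where 4.24% of all genes were (2.36% higher, 1.88% lower). Under an unadjusted p of 0.05 there were 4 members, beside 2491 of the 14887 genes. Slc40a1 was nearest at 1.06 ± 0.32 (adjusted p = 0.0583), and limma-voom did not call it. It passed by DESeq2 (adjusted p = 0.0383), with the compared groups alone (0.0271) and without sham replicate 1 or 4 of day 1 (0.0437 and 0.0448). Without sham replicate 2 of day 1 it was 0.87 (adjusted p = 0.137). For carbon black 0 of 9 were called, where 0.094% of all genes were (0.00672% higher, 0.0873% lower), and 0 by DESeq2 or limma-voom. An unadjusted p under 0.05 was seen for 1 member, beside 1248 of the 14887 genes. Sham of day 4 against sham of day 1 gave 0 of 9 members and 0% of all genes by edgeR. DESeq2 and limma-voom called 0 members there, and 1 member was under an unadjusted p of 0.05, beside 1473 genes. The differences between days share the sham libraries of both days.

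Ranked by group mean, most neighbouring groups overlapped. Tfrc ran from ozone at day 1 (206 CPM) through co-exposure and ozone at day 4 and co-exposure at day 1 to carbon black and sham, the lowest being sham at day 4 (104 CPM). Fth1 ran from co-exposure (2331 CPM) and ozone (2208 CPM) at day 1 to sham at day 4 (1583 CPM). Only 4 pairs of neighbours were apart over the 9 rankings. These were Slc40a1 after carbon black at day 1 and at day 4, Fth1 after carbon black at day 1 and in sham at day 1, Slc11a1 after ozone and co-exposure at day 1, and Cd163 after co-exposure at day 1 and ozone at day 4. The Fth1 and Slc11a1 differences were not called, and the other pairs were not compared directly. How often neighbouring groups lie apart over all genes was not counted.

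Over the 28 libraries, which share exposures and differ in depth, the level of Slc40a1 on the log2 CPM scale ran close to that of Nfam1 and Clec4d (Pearson correlation 0.925 and 0.915), of which Clec4d is among the neutrophil markers used here. Slc11a1 ran closest to Emilin2, Trpm2 and AB124611 (0.920, 0.919 and 0.918). Tfrc ran closest to Ctps, Jpt2 and Ptgs1 (0.906, 0.905 and 0.900), and Fth1 to Rad23b, Syncrip and Osmr (0.907, 0.890 and 0.885). The closest genes to Ftl1, Slc11a2, Steap4, Ireb2 and Cd163 were Arpc1a (0.821), Plxnb1 (0.806), Stom (0.774), Sypl (0.868) and Enpp2 (0.815). Among the members, Slc40a1 and Slc11a1 had the highest correlation (0.785), followed by Slc11a1 with Steap4 (0.644) and Slc40a1 with Steap4 (0.634). The ferritin chains Fth1 and Ftl1 had 0.0245.

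Other genes of iron and heme biology were called mainly in the groups that breathed ozone, as were all genes tested. Of 60 genes in 5 lists, 56 were tested, and Tfr2, Hamp2, Tmprss6 and Ftmt had too few counts. At day 1, 3 were higher and 0 lower after carbon black, 9 higher and 2 lower after ozone, and 14 higher and 3 lower after co-exposure. At day 4, 1 was higher and 0 lower after carbon black, 10 higher and 11 lower after ozone, and 19 higher and 13 lower after co-exposure. Higher genes made up 1.57%, 6.81% and 10.1% of all genes at day 1 and 0.161%, 11.7% and 17.7% at day 4 in the same order of exposures. Lower genes made up 0.0873%, 4.63% and 9.09% at day 1 and 0.047%, 9.07% and 16.3% at day 4. The 3 genes higher after carbon black at day 1 were Fbxl5, Slc25a37 and Hmox1.

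In the list of 11 transferrin cycle and import genes, 10 were tested, and 4 rose after ozone at day 4 with 0 falling. After co-exposure at day 4, 4 rose and 2 fell. Steap1 and Steap2, metalloreductases related to Steap4, rose by 2.42 ± 0.29 and 1.23 ± 0.14 on the log2 scale after co-exposure at day 4 (adjusted p = 4.6e-07 and 1.6e-07, edgeR). Steap2 stood at 52.1 CPM there, against 22.2 CPM in sham. The lactoferrin gene Ltf, whose product binds iron in secretions, rose by 3.58 ± 0.78 there. Steap3, the reductase of transferrin endosomes in red cell precursors, fell by 0.95 ± 0.16 after co-exposure at day 1, to 9.96 CPM, against 19.3 CPM in sham. Slc39a14, a zinc transporter that also imports iron not bound to transferrin, rose at day 1 after ozone (0.73 ± 0.15) and co-exposure (0.51 ± 0.16), and was not called at day 4.

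In the list of 11 genes of export, hepcidin and systemic control, 9 were tested. Cp, the ceruloplasmin that oxidises iron as ferroportin releases it, rose in 5 of the 6 exposure comparisons. It stood at 536 and 510 CPM after ozone and co-exposure at day 1, against 306 CPM in sham, and at 452, 388 and 419 CPM after carbon black, ozone and co-exposure at day 4, against 289 CPM in sham. Cp was the 1 listed gene called after carbon black at day 4 (0.65 ± 0.11, adjusted p = 0.00822). Of the 9 tested, 6 fell after co-exposure at day 4, among them Bmp6 (-1.46 ± 0.13), a ligand that raises hepcidin in liver, and Smad6 (-1.22 ± 0.16) and Smad7 (-0.89 ± 0.14), inhibitors of that signal. All 5 endothelial markers fell in the same comparison, to 864 to 1559 summed CPM after co-exposure, against 2256 to 3058 CPM in sham, and their part was not tested.

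In the list of 9 cytosolic sensors and chaperones, all tested, Fbxl5, part of the ubiquitin ligase that marks iron regulatory protein 2 for breakdown, rose at day 1 after carbon black (0.47 ± 0.09), ozone (0.41 ± 0.09) and co-exposure (0.35 ± 0.09). Its interaction was -0.52 ± 0.13 (adjusted p = 0.0423). Aco1, which encodes iron regulatory protein 1, rose at day 4 after ozone (0.63 ± 0.14) and co-exposure (0.53 ± 0.14), and no gene of the list fell in any of the 6 comparisons with sham. In the list of 11 mitochondrial genes, 10 were tested. At day 4, 3 fell and 0 rose after ozone, and 2 rose and 2 fell after co-exposure, among them the mitochondrial iron importer Slc25a37 at -1.13 ± 0.19 after co-exposure. Erythroid markers, of which 7 of 8 fell there, summed to 3965 to 6913 CPM, against 11140 to 30580 CPM in sham, and their part was not tested.

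In the list of 18 heme and hemoglobin genes, all tested, 9 rose and 3 fell after co-exposure at day 4. Hpx, the hemopexin that binds free heme, rose by 3.46 ± 0.31 after ozone and 3.47 ± 0.31 in the co-exposure group at day 1, to 13.6 and 13.7 CPM, against 1.21 CPM in sham. Of the biliverdin reductases, enzymes of heme breakdown, Blvrb rose at day 1 (0.72 ± 0.16 after ozone, 0.90 ± 0.16 after co-exposure) and Blvra at day 4 (0.66 ± 0.11 and 0.70 ± 0.11). The co-exposure effect differed between the days by 0.65 ± 0.14 for Blvra (adjusted p = 0.00378) and by -0.72 ± 0.24 for Blvrb (adjusted p = 0.0565). Fech, which inserts iron into heme, and Slc48a1, which moves heme out of lysosomes, fell by 0.80 ± 0.19 and 0.50 ± 0.08 after co-exposure at day 4.

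**Figure D4:**
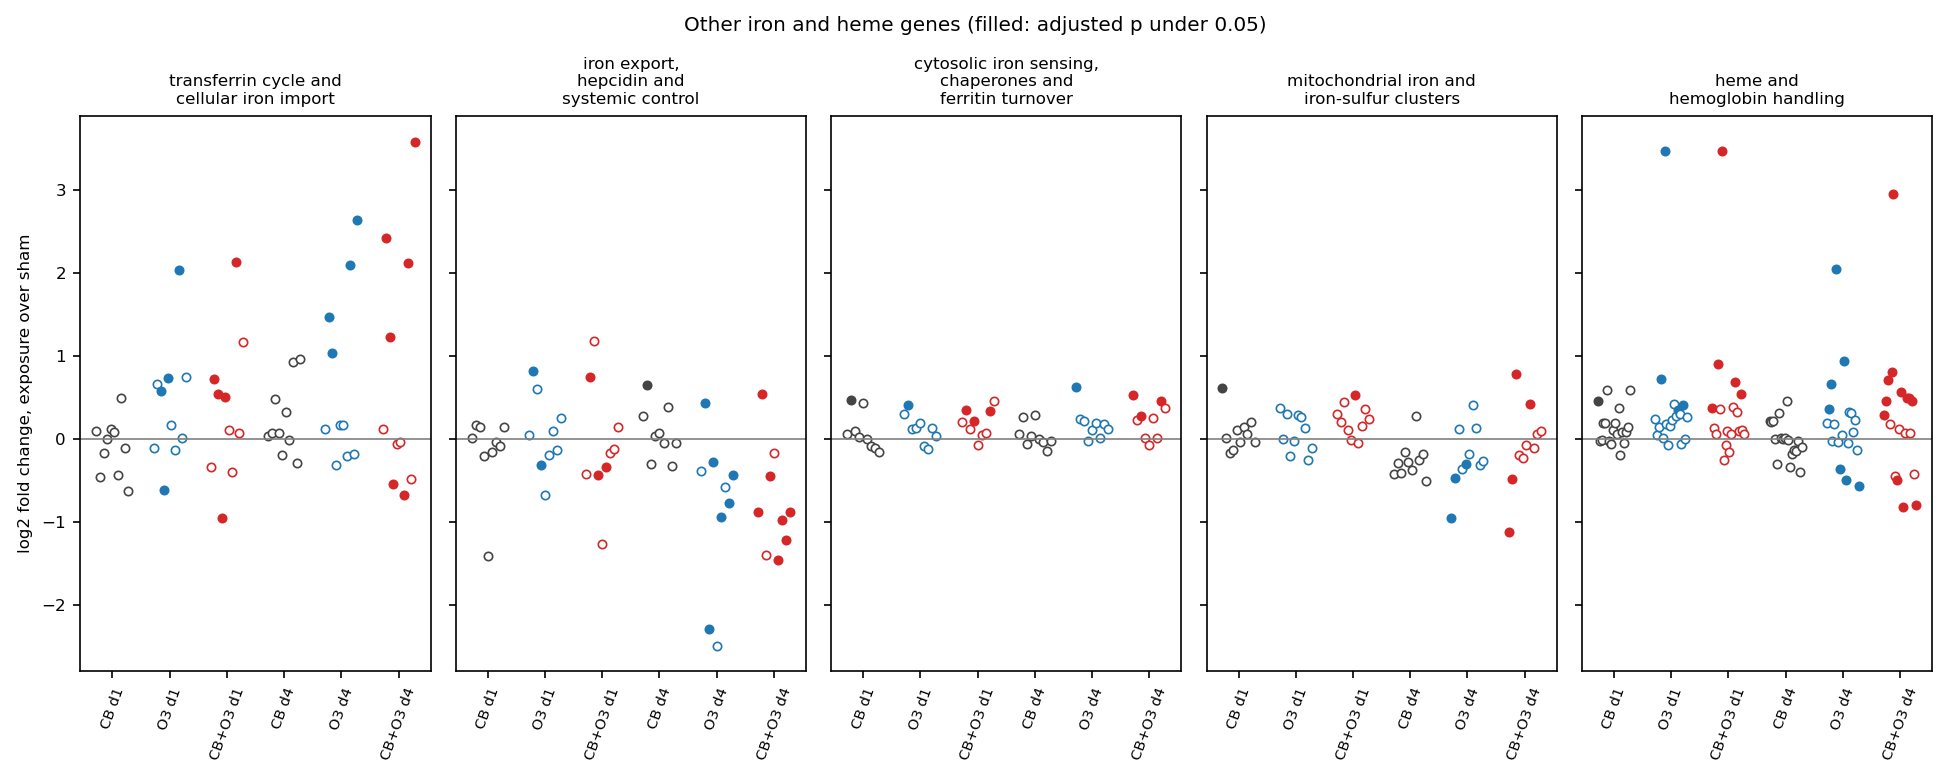
Log2 fold change over sham (y axis) of the 56 tested genes of 5 iron and heme lists, 1 panel per list, in the order carbon black (CB), ozone (O3) and co-exposure (CB+O3) at day 1 (d1) and then day 4 (d4). Filled points passed an adjusted p of 0.05. After co-exposure at day 4, 19 genes are filled above 0 and 13 below.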

How the data were processed

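Per the labels' protocols, TruSeq stranded mRNA libraries of whole-lung homogenate were sequenced on an Illumina HiSeq and quantified by the authors with Salmon 1.1.0. The submitters' processing notes also name mm10, R 3.6.3 and DESeq2, without their roles. In the table the authors deposited, values are estimated counts for each gene, with no sign of normalization, and 17.7% of values are fractional. Rounding made them whole before testing. Salmon divides reads shared by similar genes by estimate. GENCODE M21 (GRCm38) named 35505 of the 35880 identifiers, and coordinates are 1-based from it.

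The test was edgeR's (version 4.0.16, under R 4.3.3; quasi-likelihood F test, robust, TMM factors 0.902 to 1.05, filterByExpr leaving 14887 genes and 99.9% of counts). All 28 libraries entered 1 fit of 8 group means (20 residual degrees of freedom), and biological variation between libraries of a group was 15.7% for a typical gene. In all, 16 comparisons were made, with Benjamini-Hochberg adjustment across the tested genes and calls at an adjusted p under 0.05. Standard errors are the log2 fold change over the square root of F. The script was tested on simulated data. Intervals cover the spread between libraries, and the depth of 5.14 M to 9.72 M counts limits Slc11a1, Slc40a1 and Cd163 most, which had 19 to 214 counts per library.

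The members and the iron and marker lists were chosen with earlier results of these data known. Other genes named were, by rule, up to 6 per iron list with the smallest p for co-exposure against sham at day 4 and up to 4 for ozone at day 1, every ferritin copy with a count, and the 3 genes with a curated symbol most correlated with each member (log2 CPM, prior count 2), of which 1 is not reported here. Hmox1 and the untested list genes were named after their values were seen. Alternatives were median-of-ratios scaling, no filter or a stricter filter of 1 CPM in 4 libraries, DESeq2 1.42.0, limma-voom (limma 3.58.1), fits of the compared groups only, a replicate block and leaving out each library. Leaving out the 2 day 1 libraries with most muscle RNA was added after seeing the data.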

Additional observations from a re-analysis of the deposited data

Results flagged for a closer look

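Among 36 groups of 4 libraries, 3 held a library far from the rest by Dixon's criterion, where chance gives about 1 in 20. They were the lowest Slc11a2 library after co-exposure at day 1 (38.0 CPM, against 42.3 to 42.7 CPM in the others), the lowest Steap4 library of the same group (9.40 CPM, against 15.1 to 15.8 CPM) and the lowest Cd163 library after ozone at day 1 (5.54 CPM, against 11.8 to 12.6 CPM). The Slc11a2 and Steap4 values came from the same library, replicate 4.

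The effect of an exposure differed between conditions in 5 tests. For Slc40a1 the particle by ozone interaction at day 1 was -1.52 and the co-exposure effect was 1.16 higher at day 4 than at day 1. For Slc11a1 the same tests gave -1.38 and 1.3. For Fth1 the co-exposure effect at day 4 minus that at day 1 was -0.45 on the log2 scale.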

How the results depend on the processing

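Over 144 results of single members with 13 to 24 alternatives each, 0 changed direction while called. Carbon black against sham at day 1 called 1 member, 0 when only the compared groups were fitted and 3 without the pair of muscle-rich libraries. Ozone against sham at day 4 called 2, 1 with no low-count filter, and 3 with DESeq2 or only the compared groups, where Slc11a2 was added. Co-exposure against sham at day 4 called 2, and 1 with only the compared groups. The interaction at day 1 called 2, and 1 with no low-count filter, with limma-voom or with the replicate block. The ozone difference between days called 0, and 1 with DESeq2 or only the compared groups, and the co-exposure difference called 3, and 0 with only the compared groups or without the muscle-rich pair. The cause was not tested.

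Leaving out 1 library at a time gave 1 to 3 members for carbon black at day 1, 2 to 4 for co-exposure at day 1, 1 to 2 for ozone and 1 to 3 for co-exposure at day 4, 1 to 2 for co-exposure against carbon black at day 4, 1 to 3 for the interaction at day 1, 0 to 1 for the ozone and 0 to 3 for the co-exposure difference between days. It left 2 for ozone at day 1, 4 for co-exposure against carbon black at day 1 and 0 in the comparisons not listed. Counts of called genes over the whole table moved by more than 1.5 times in many comparisons. Across all alternatives they spanned 7 to 357 (247 as reported) for carbon black, 904 to 2220 (1704) for ozone and 1771 to 3109 (2854) for co-exposure at day 1. At day 4 they spanned 7 to 653 (31) for carbon black and 3175 to 5401 (5073) for co-exposure. Co-exposure against ozone reached 19 at day 1 and, without co-exposure replicate 1, 2769 at day 4, against 0 as reported. Co-exposure against carbon black spanned 2534 to 4127 (3849) at day 1 and 2373 to 6293 (5687) at day 4. The interaction spanned 56 to 898 (218) at day 1 and 0 to 2979 (204) at day 4, the highest without the same library, and the difference between days 2 to 42 (14) for carbon black and 365 to 1125 (631) for ozone.

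Whether replicate numbers pair the libraries was not settled. Of 42 same-numbered pairs, 12 correlated over 0.1, with a range of -0.25 to 0.479. Their median was 0.0398, and -0.0169 for other numbers, and 14 of 28 libraries correlated best with their own number. With the replicate block, 1 member in place of 2 was called for the interaction at day 1 (the Slc11a1 call was lost, at adjusted p = 0.0572), and the block changed no other count of members.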
